A study of Mus musculus with 10 samples.

Results

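Transforming growth factor beta (TGF-beta) ligands, their receptors and the proteins that hold them latent were followed in overloaded mouse plantaris muscle, a calf muscle that extends the ankle. The 10 genes were taken by symbol from the array annotation, out of 22180 genes with a single symbol. They were the 3 ligands Tgfb1, Tgfb2 and Tgfb3, the 3 latent TGF-beta binding proteins Ltbp1, Ltbp2 and Ltbp3, the 3 receptors Tgfbr1, Tgfbr2 and Tgfbr3, and Tgfbi, which encodes a TGF-beta-induced matrix protein. The study overloaded the plantaris by synergist ablation, in which the muscles that share its work are removed so that it must carry more load, and asked what a platelet-derived growth factor (PDGF) inhibitor changes. All mice were male C57BL/6, and the sources used here do not give their age. The 5 groups were 3 d of overload with the inhibitor, 3 d of overload alone, 10 d of overload with the inhibitor, 10 d of overload alone, and no overload, the last with neither ablation nor inhibitor. Each group had 2 arrays, and each array held RNA pooled from 4 muscles. No inhibitor group without overload was analysed here, so the inhibitor was compared within overloaded muscle. The sources used here give neither the inhibitor's name nor its vehicle.

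TGF-beta is secreted bound to its own propeptide, which keeps it inactive, and a latent binding protein tethers that complex to the extracellular matrix. Integrins, proteases and matrix proteins release the ligand, which binds the type II receptor Tgfbr2, recruits the type I receptor Tgfbr1 and signals through the SMAD transcription factors, while Tgfbr3 (betaglycan) presents ligand at the cell surface. In skeletal muscle the pathway is known for driving collagen production by fibroblasts and for restraining the differentiation of muscle precursor cells.

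Of the 10 genes, 8 matched a promoter entry in the RefSeq table of build GRCm38.p6, and Tgfb3 and Tgfbr3 had none. The sequences before the starts of Tgfb1, Ltbp2 and Tgfbi are shown because these 3 genes rose at 3 d. Capitals mark matches on either strand to 3 motifs that were searched, namely TGANTCA for AP-1, CAGAC for the SMAD-binding core and GCGNGGGCG for EGR factors. The Tgfb1 stretch lies at chr7:25686752-25687001 on the plus strand. The Ltbp2 stretch lies at chr12:84876559-84876741 on the minus strand and was shortened to the 183 bases before the annotated gene. The Tgfbi stretch lies at chr13:56609336-56609585 on the plus strand.
Tgfb1: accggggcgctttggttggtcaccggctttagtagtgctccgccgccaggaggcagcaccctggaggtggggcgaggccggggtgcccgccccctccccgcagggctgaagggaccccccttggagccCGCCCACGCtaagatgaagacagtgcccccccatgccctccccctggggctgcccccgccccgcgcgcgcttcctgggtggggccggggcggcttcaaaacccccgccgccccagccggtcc
Ltbp2: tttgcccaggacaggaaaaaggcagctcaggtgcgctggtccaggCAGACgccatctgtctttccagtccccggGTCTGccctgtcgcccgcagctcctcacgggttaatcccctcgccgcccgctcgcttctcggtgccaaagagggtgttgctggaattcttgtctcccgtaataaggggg
Tgfbi: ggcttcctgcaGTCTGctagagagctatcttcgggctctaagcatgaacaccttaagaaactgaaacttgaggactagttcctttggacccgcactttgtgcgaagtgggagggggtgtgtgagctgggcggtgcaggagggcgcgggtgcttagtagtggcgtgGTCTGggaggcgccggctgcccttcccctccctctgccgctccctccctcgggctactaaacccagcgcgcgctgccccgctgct
The Tgfb1 stretch held 1 EGR match, on the minus strand, and no match to the other motifs. Ltbp2 and Tgfbi each held 2 CAGAC matches and no EGR match. Genes that were not called at 3 d had such matches too in the 250 bases before a start. Tgfbr1 held 1 EGR match, and CAGAC was found for Tgfb2, Tgfbr1, Tgfbr2, Ltbp1 and Ltbp3. None of the 3 stretches held TGANTCA. Over the 250 bases before the start of all 32851 promoters in the table, the AP-1 motif was found in 6.75%, CAGAC in 42.2% and the EGR motif in 4.7%, so a CAGAC match is common by letters alone. The matches did not overlap one another.

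Expression was measured on 10 Affymetrix Mouse Gene 2.1 ST arrays as log2 values, so that a difference of 1 is a 2-fold change. Each of the 10 genes had 1 probe set with a single symbol. Array medians lay between 2.402 and 2.452, and the 2 pools of a group correlated at 0.989 to 0.992 over all probe sets. Depth on arrays is set by the signal and by the number of arrays, and 2 pools per group limit the precision of each value below. The 8 muscle fibre markers, among them Acta1, Ckm and Myh4, summed to between 22137 and 27135 linear units in the 10 pools, so fast-fibre skeletal muscle RNA was present in each. Summed granulocyte precursor markers stood apart in the first 3 d overload pool, at 273 linear units against at most 69.99 in the other pools. A gene was called when the adjusted p of the limma fit over all 22180 genes was below 0.05. The labels do not say that the pools of a group came from separate animals, so every p-value here reflects the spread between 2 pools per group, which may be technical. A fit that left out a pool kept 1 pool in that group and took the spread from the other groups.

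**Figure D1:**
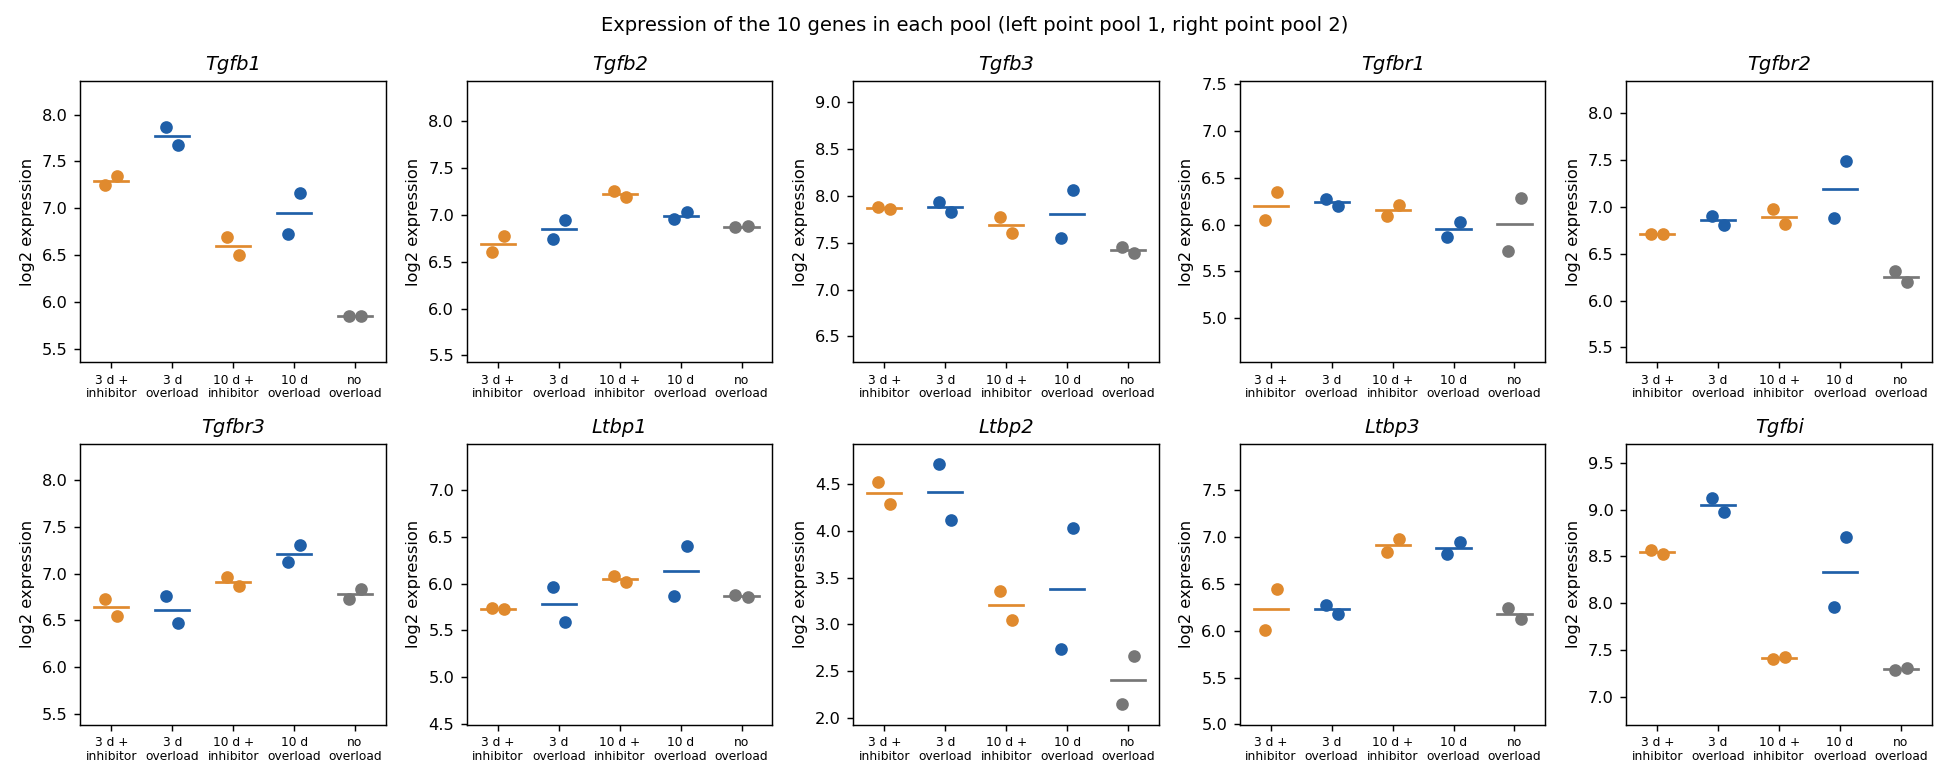
Log2 expression of each of the 10 genes in the 10 pools, with 1 panel per gene, groups along the horizontal axis and each point a pool. Tgfb1 is highest at 3 d of overload alone, at 7.87 and 7.67, and lowest without overload, and its groups do not overlap, whereas Tgfbr1 overlapped between all neighbouring groups in its order of means.

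With overload alone, 3 of the 10 genes rose at 3 d, namely Tgfb1, Ltbp2 and Tgfbi, and none fell, where 9.31% of all genes rose and 8.18% fell. Both 3 d pools exceeded both pools without overload in 5 of the 10 genes, which held for 25.1% of all genes. The median change of the 10 genes was 0.35 at 3 d, against -0.04 over all genes. At 10 d, 4 rose, namely Tgfb1, Tgfbr2, Ltbp3 and Tgfbi, and none fell, where 3.9% of all genes rose and 1.23% fell. The median at 10 d was 0.56, against -0.04 over all genes. Both 10 d pools exceeded both pools without overload in 8 of the 10 genes, which held for 22.1% of all genes. Between the overload times Tgfb1 fell and no member rose, where 3.38% of all genes fell and 2.7% rose. Both comparisons with no overload share the same 2 control pools, so their values stand side by side and were not counted as 2 separate sources. Setting the arrays to a common median over genes took 0.19 off every 3 d change and 0.17 off every 10 d change, a setting chosen after seeing the data, and the calls of Tgfb1, Ltbp2 and Tgfbi at 3 d held there.

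Tgfb1, which encodes the ligand studied most in wound repair and fibrosis, had log2 levels of 7.25 and 7.35 at 3 d with the inhibitor, 7.87 and 7.67 at 3 d of overload alone, 6.70 and 6.50 at 10 d with the inhibitor, 6.73 and 7.16 at 10 d of overload alone, and 5.85 and 5.85 without overload. All 8 overloaded pools lay above both pools without overload, and the 5 groups did not overlap. At 3 d of overload Tgfb1 rose by 1.92 ± 0.17 (SE of the log2 change, n = 2 pools per group here and below), a 3.79-fold difference, adjusted p = 0.000293. At 10 d it rose by 1.10 ± 0.17, 2.14-fold, adjusted p = 0.012. That call was lost without the second 10 d pool (adjusted p = 0.0661) and without the first or the second pool of no overload (0.0677 and 0.0532). Tgfb1 fell by 0.83 at 10 d against 3 d of overload, to a mean of 6.94 at 10 d against 7.77 at 3 d (adjusted p = 0.0287). The decrease missed the threshold without the first 3 d pool (adjusted p = 0.154), the second 3 d pool (0.0822) or the first 10 d pool (0.133).

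Tgfb2, the ligand known for roles in heart and palate development, had levels of 6.60 and 6.78 at 3 d with the inhibitor, 6.74 and 6.95 at 3 d of overload alone, 7.26 and 7.19 at 10 d with the inhibitor, 6.96 and 7.03 at 10 d of overload alone, and 6.87 and 6.88 without overload. Its group means spanned 0.53 log2 units. The 3 d pools lay on both sides of the pools without overload, and the difference was -0.03 with a 95% interval of -0.34 to 0.28. At 10 d the difference from no overload was 0.12 (interval -0.19 to 0.43, adjusted p = 0.684).

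Tgfb3, a ligand known for its role in palate closure, had levels of 7.88 and 7.86 at 3 d with the inhibitor, 7.94 and 7.83 at 3 d of overload alone, 7.77 and 7.61 at 10 d with the inhibitor, 7.55 and 8.06 at 10 d of overload alone, and 7.46 and 7.39 without overload. Every overloaded pool was above the pools without overload, and the 4 overloaded groups overlapped in the order of their means. The 3 d difference of 0.46 (interval 0.05 to 0.86) did not pass over all genes, with an adjusted p of 0.123. The 10 d difference was 0.38 (interval -0.02 to 0.79, adjusted p = 0.276).

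Of the latent binders, Ltbp2 was called at 3 d, Ltbp3 at 10 d and Ltbp1 at neither time. Ltbp2, a microfibril protein that carries the family name but is known not to bind latent TGF-beta itself, had levels of 4.52 and 4.28 at 3 d with the inhibitor, 4.71 and 4.11 at 3 d of overload alone, 3.36 and 3.05 at 10 d with the inhibitor, 2.74 and 4.03 at 10 d of overload alone, and 2.15 and 2.66 without overload. The pools without overload sat near the array medians, so the gene was dim there, and a second probe set shared with another symbol was not used. Ltbp2 rose by 2.0 ± 0.39 at 3 d, 4.01-fold, adjusted p = 0.00878. The call was lost without the first 3 d pool (1.71, adjusted p = 0.0697) and without the first pool of no overload (1.75, adjusted p = 0.0601). At 10 d both pools were still above those without overload, but they lay 1.29 apart on the log2 scale and the difference of 0.97 did not pass (interval 0.08 to 1.87, adjusted p = 0.209).

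Ltbp3, which tethers latent TGF-beta and is known for skeletal and dental roles, had levels of 6.01 and 6.45 at 3 d with the inhibitor, 6.27 and 6.18 at 3 d of overload alone, 6.84 and 6.98 at 10 d with the inhibitor, 6.82 and 6.95 at 10 d of overload alone, and 6.24 and 6.13 without overload. All 4 pools at 10 d lay above the other 6 pools. At 3 d the difference from no overload was 0.05 (interval -0.34 to 0.43). At 10 d Ltbp3 rose by 0.70 ± 0.17, 1.63-fold, at an adjusted p of 0.0498 that sits at the threshold. Of the 10 fits that left out a pool, the call held in those without the first or the second 3 d pool with the inhibitor (adjusted p = 0.0382 in each). It was lost in the other 8, with adjusted p from 0.0759 to 0.221. It was also lost when arrays were set to a common median over genes (0.54, adjusted p = 0.0853). The 10 d against 3 d difference of 0.66 (interval 0.28 to 1.04) had an adjusted p of 0.0572.

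Ltbp1, the binder that fixes latent TGF-beta to fibrillin and fibronectin, had levels of 5.74 and 5.73 at 3 d with the inhibitor, 5.97 and 5.59 at 3 d of overload alone, 6.08 and 6.02 at 10 d with the inhibitor, 5.86 and 6.40 at 10 d of overload alone, and 5.88 and 5.86 without overload. Pools of both overload times overlapped those without overload. Its difference from no overload was -0.09 at 3 d (interval -0.54 to 0.36) and 0.26 at 10 d (interval -0.19 to 0.71).

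Of the receptors, only Tgfbr2 was called, and at 10 d of overload alone. Tgfbr2, the ligand-binding kinase, had levels of 6.71 and 6.71 at 3 d with the inhibitor, 6.91 and 6.81 at 3 d of overload alone, 6.98 and 6.82 at 10 d with the inhibitor, 6.88 and 7.49 at 10 d of overload alone, and 6.31 and 6.20 without overload. All 8 overloaded pools lay above the pools without overload. The 3 d difference of 0.60 (interval 0.16 to 1.05) had an adjusted p of 0.0694. At 10 d Tgfbr2 rose by 0.93 ± 0.20, 1.91-fold, adjusted p = 0.0323. That call was lost in 9 of 10 fits that left out a pool, in every one except the fit without the first 10 d pool (1.24, adjusted p = 0.00641), and the adjusted p in those 9 fits was 0.0541 to 0.135. Without the second 10 d pool the difference was 0.63.

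Tgfbr1, the kinase that phosphorylates the SMADs, had levels of 6.05 and 6.35 at 3 d with the inhibitor, 6.27 and 6.20 at 3 d of overload alone, 6.09 and 6.21 at 10 d with the inhibitor, 5.87 and 6.03 at 10 d of overload alone, and 5.72 and 6.29 without overload. In the order of their means, neighbouring groups overlapped throughout, and the 2 pools without overload alone spanned 0.57 log2 units. Both 10 d pools with the inhibitor lay above both pools of 10 d of overload alone. Its difference from no overload was 0.23 at 3 d (interval -0.22 to 0.69) and -0.05 at 10 d (interval -0.51 to 0.40).

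Tgfbr3, the co-receptor that captures ligand, had levels of 6.73 and 6.54 at 3 d with the inhibitor, 6.76 and 6.47 at 3 d of overload alone, 6.96 and 6.86 at 10 d with the inhibitor, 7.12 and 7.30 at 10 d of overload alone, and 6.73 and 6.84 without overload. The pools of 10 d of overload alone were the highest and did not overlap any other group. The 10 d against 3 d difference was 0.60 (interval 0.24 to 0.95, adjusted p = 0.0599), and 10 d differed from no overload by 0.43 (interval 0.07 to 0.78, adjusted p = 0.165). Neither passed.

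Tgfbi, a secreted protein that binds collagens and integrins and is named for its induction by TGF-beta, had levels of 8.57 and 8.53 at 3 d with the inhibitor, 9.12 and 8.97 at 3 d of overload alone, 7.40 and 7.43 at 10 d with the inhibitor, 7.96 and 8.71 at 10 d of overload alone, and 7.28 and 7.31 without overload. The 10 d pools with the inhibitor lay just above the pools without overload, while the 10 d pools of overload alone were both higher still. Tgfbi rose by 1.75 ± 0.22 at 3 d, 3.37-fold, adjusted p = 0.00115. It rose by 1.04 ± 0.22 at 10 d, 2.06-fold, adjusted p = 0.0326. The 10 d call was lost in 9 of 10 fits that left out a pool, in each except the fit without the first 10 d pool (1.41, adjusted p = 0.00303), and the adjusted p in those 9 fits was 0.0547 to 0.135. Without the second 10 d pool the difference was 0.67. The 10 d against 3 d difference was -0.71 (interval -1.21 to -0.22, adjusted p = 0.0974).

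**Figure D2:**
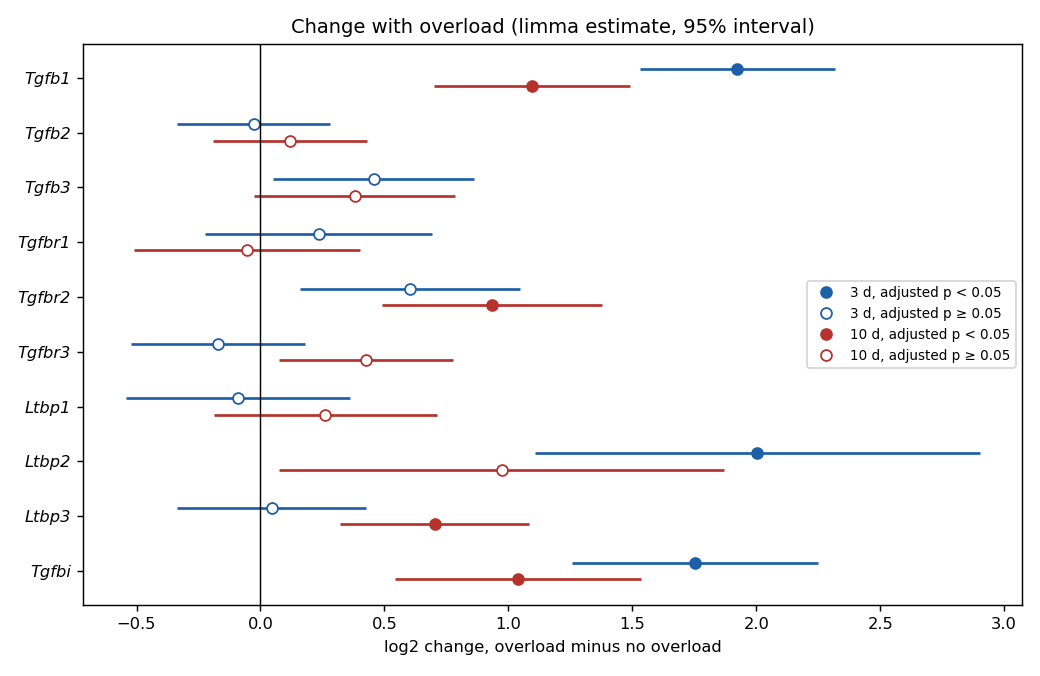
Log2 change of each of the 10 genes at 3 d and at 10 d of overload against no overload, with 95% intervals from the limma fit and filled points for called genes. Tgfb1, Ltbp2 and Tgfbi sit between 1.75 and 2.0 at 3 d, and Ltbp3 and Tgfbr3 lie further right at 10 d than at 3 d.

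With the PDGF inhibitor, none of the 10 genes was called at 3 d or at 10 d. At 3 d the limma fit called 0 of 22180 genes, or 0% (2011 had an unadjusted p under 0.05, and a fit with a variance trend called 15). At 10 d it called 23 genes, or 0.104%, none of them among the 10. Both inhibitor pools lay below both pools without the inhibitor for Tgfb1, Tgfbr2 and Tgfbi at 3 d, and for Tgfb1, Tgfbr3 and Tgfbi at 10 d. Such a separation downwards held for 17.7% of all genes at 3 d and 19.5% at 10 d. Both inhibitor pools lay above for Tgfb2 and Tgfbr1 at 10 d and for none of the 10 genes at 3 d, where 21.6% of all genes did so at 10 d and 22.3% at 3 d.

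Tgfbi had the largest difference of the 10 genes with the inhibitor at both times. At 3 d it averaged 8.55 with the inhibitor and 9.05 without it, a difference of -0.50 (interval -0.999 to -0.0064, adjusted p = 0.548). At 10 d it averaged 7.41 with the inhibitor and 8.34 without it, a difference of -0.92 (interval -1.42 to -0.43, adjusted p = 0.192). Averaged over both times the difference was -0.71 (interval -1.06 to -0.36, adjusted p = 0.107), in a comparison that called 0.289% of all genes. The fit with a variance trend called Tgfbi at 10 d (adjusted p = 0.0315) and averaged over both times (adjusted p = 0.0134). Leaving out the first 10 d overload pool, which left the second, at 8.71, as the only pool of that group, did so too (-1.29, adjusted p = 0.0203, and -0.90, adjusted p = 0.0135), and leaving out the second gave -0.55 at 10 d (adjusted p = 0.36).

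Tgfb1 averaged 7.30 with the inhibitor and 7.77 without it at 3 d, a difference of -0.48 (interval -0.87 to -0.08, adjusted p = 0.47). At 10 d it averaged 6.60 with the inhibitor and 6.94 without it, a difference of -0.35 (interval -0.74 to 0.05, adjusted p = 0.537). Over both times the difference was -0.41 (interval -0.69 to -0.13, adjusted p = 0.208). Ltbp2 and Ltbp3, which rose at one overload time each, had differences near 0 with the inhibitor at that time. For Ltbp2 at 3 d the difference was -0.01 with a wide interval of -0.91 to 0.89, and for Ltbp3 at 10 d it was 0.03 with an interval of -0.35 to 0.41. Tgfbr2 differed by -0.29 at 10 d (interval -0.74 to 0.15). Tgfb2 was 0.23 higher with the inhibitor at 10 d (interval -0.08 to 0.54, adjusted p = 0.606). The inhibitor's effect at 10 d was not called as different from its effect at 3 d for any of the 10 genes, in a comparison that called 0% of all genes (1434 had an unadjusted p under 0.05), and the Tgfbi difference between the effects was -0.42 (interval -1.12 to 0.28).

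**Figure D3:**
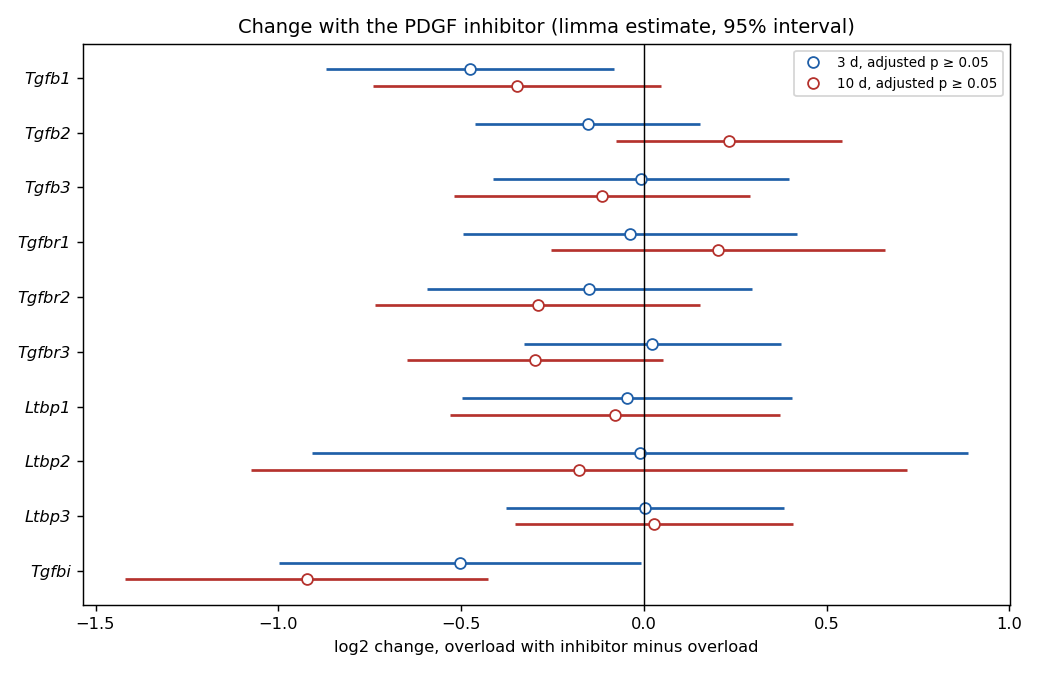
Log2 change of each of the 10 genes with the PDGF inhibitor against overload alone at 3 d and at 10 d, with 95% intervals from the limma fit. No point is filled because no gene was called, and Tgfbi at 10 d lies furthest from 0, at -0.92.

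Set against no overload, muscle given the inhibitor showed the same 3 rises at 3 d. Tgfb1 rose by 1.45 ± 0.17 (adjusted p = 0.00142), Ltbp2 by 1.99 ± 0.39 (adjusted p = 0.0117) and Tgfbi by 1.25 ± 0.22 (adjusted p = 0.00693), where 7.71% of all genes rose and 6.51% fell. The Ltbp2 call was lost without the first inhibitor pool at 3 d (adjusted p = 0.079) and without the first pool of no overload (adjusted p = 0.0745). At 10 d with the inhibitor none of the 10 genes was called, where 1.13% of all genes rose and 0.428% fell. Tgfb1 differed from no overload there by 0.75 (interval 0.36 to 1.14, adjusted p = 0.0749) and Ltbp3 by 0.73 (interval 0.35 to 1.11, adjusted p = 0.0742). Tgfbi differed by 0.12 (interval -0.38 to 0.61, adjusted p = 0.864). Both pools lay above both pools without overload for 9 of the 10 genes, all but Tgfbr1, and for 21.5% of all genes. That a gene passed at 10 d of overload and did not pass with the inhibitor does not show a difference between those groups, and the direct comparisons above give that difference.

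Genes that store, release and activate latent TGF-beta formed the first of 4 pathway lists, of which 67 of 69 genes were measured. Of its 21 measured genes, 9 rose and 2 fell at 3 d, where 9.31% of all genes rose and 8.18% fell, with a list median of 0.87. Thbs1, the thrombospondin that can activate the latent complex, rose by 2.68 ± 0.49 (adjusted p = 0.00648). The membrane protease gene Mmp14 rose by 2.28 ± 0.36, Fn1 (fibronectin) by 2.15 ± 0.26 and Plat (tissue plasminogen activator) by 1.62 ± 0.23. The genes that fell were Ltbp4, the remaining latent binder (-0.71 ± 0.12, adjusted p = 0.00502), and the integrin subunit gene Itgb5 (-0.51). Of the 11 calls, 5 held without each pool in turn, among them Mmp14, Fn1, Plat and Ltbp4, and Thbs1 held in 9 of 10 fits. At 10 d, 6 of the 21 rose and none fell, where 3.9% of all genes rose and 1.23% fell, with a median of 0.48, led by Mmp14 (3.15 ± 0.36), Fbn2 (2.70 ± 0.62), Fn1 (2.37 ± 0.26) and Mmp2 (2.01 ± 0.26). Fbn2 lay below the median over genes in both pools without overload, at 2.04 and 2.49, so the size of its change rests on a dim baseline. The Fbn2 call (adjusted p = 0.0449) held only without the first 10 d pool among the 10 fits that left out a pool.

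Ltbp4, another latent binder, fell at 3 d of overload. Its levels were 6.76 and 6.83 at 3 d with the inhibitor, 6.98 and 6.94 at 3 d of overload alone, 7.19 and 7.17 at 10 d with the inhibitor, 7.89 and 7.82 at 10 d of overload alone, and 7.61 and 7.72 without overload. The pools of 3 d of overload alone were below and those of 10 d of overload alone above those without overload. It was 0.90 ± 0.12 higher at 10 d than at 3 d of overload (adjusted p = 0.00746), a call that was lost without the first 3 d pool (adjusted p = 0.0502). With the inhibitor at 10 d it differed by -0.68 ± 0.12 without passing (adjusted p = 0.128). In that list Mmp2 also rose between the overload times (1.82 ± 0.26), and Lrrc32, which holds latent TGF-beta on cell surfaces (-0.79), and Itgb1 (-0.54) fell. Over all genes, 2.7% rose and 3.38% fell between those times. The call of Mmp2 held in 9 of the 10 fits that left out a pool, that of Lrrc32 in 7 and that of Itgb1 in 0.

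Of 11 genes for receptor partners and ligand-binding proteins, Cd109 and Bgn rose at both overload times and none fell, where 9.31% of all genes rose at 3 d and 3.9% at 10 d. The list medians were 0.18 at 3 d and 0.20 at 10 d. Cd109, a co-receptor known to restrain TGF-beta signalling in skin cells, had levels of 6.30 and 6.29 at 3 d with the inhibitor, 6.50 and 6.51 at 3 d of overload alone, 4.64 and 4.56 at 10 d with the inhibitor, 5.63 and 6.05 at 10 d of overload alone, and 3.72 and 3.77 without overload. It rose by 2.76 ± 0.16 at 3 d (adjusted p = 5.54e-05) and by 2.09 ± 0.16 at 10 d (adjusted p = 0.001). With the inhibitor at 10 d it fell by 1.24 (SE 0.16, adjusted p = 0.0417). It was the only one of the 67 pathway genes called there, where 0.104% of all genes were called. That call held in 1 of 10 fits that left out a pool, the fit without the first 10 d overload pool, and its adjusted p reached 0.251 in the others. Bgn (biglycan, a proteoglycan that binds TGF-beta) rose by 1.74 ± 0.19 at 3 d and 1.59 ± 0.19 at 10 d. Between the overload times Htra1 rose by 1.29 ± 0.32 (adjusted p = 0.0495) and Cd109 fell by 0.67 (adjusted p = 0.0447). Over all genes, 2.7% rose and 3.38% fell between those times. Of the fits that left out a pool, the Htra1 call held only without the first 10 d overload pool and the Cd109 call only without the second.

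Of 16 transducer and feedback genes, 4 rose and 1 fell at 3 d, where 9.31% of all genes rose and 8.18% fell, and none was called at 10 d. The list median was -0.02 at 3 d, with 8 of 16 genes higher, and -0.08 at 10 d, against -0.04 over all genes at both times. The SMAD corepressor genes Tgif1 (0.94 ± 0.20) and Skil (0.52 ± 0.15), the feedback inhibitor Pmepa1 (0.85 ± 0.21) and the ubiquitin ligase Smurf2 (0.46 ± 0.14) rose, and Zfyve9, which presents SMADs to the receptor, fell by 0.85. Of these 5 calls only that of Zfyve9 held without each pool in turn. The call of Smurf2 (adjusted p = 0.0496) held in 0 of the 10 fits, that of Skil (adjusted p = 0.0495) in 1, and those of Tgif1 and Pmepa1 in 7 each. Setting arrays to a common median over genes gave 2 higher and 4 lower in this list at 3 d. Tgif1 fell by 1.06 between the overload times (adjusted p = 0.0199), where 3.38% of all genes fell. That call held in 7 of the 10 fits.

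The fourth list held 19 measured genes that TGF-beta is known to induce, most of which answer to other signals as well, and it was chosen with earlier results of these samples known. At 3 d 14 rose and none fell, where 9.31% of all genes rose and 8.18% fell, with a median of 1.48. Tnc, which encodes the matrix glycoprotein tenascin C, rose by 5.26 ± 0.32 (adjusted p = 8.15e-05), the protease inhibitor gene Timp1 by 5.19 ± 0.39, Postn (periostin) by 4.50 ± 0.37 and the collagen cross-linking enzyme gene Lox by 4.16 ± 0.36. At 10 d 9 rose and none fell, where 3.9% of all genes rose and 1.23% fell, with a median of 1.11, led by Postn (4.41 ± 0.37), the fibrillar collagen gene Col3a1 (3.37 ± 0.23), Tnc (3.13 ± 0.32) and Timp1 (3.12 ± 0.39). Timp1 was dim without overload, at 2.02 and 3.12, and below the median over genes in the first of those pools, so the size of its change is less certain than that of its level with overload. Of these calls, 10 of 14 at 3 d and 7 of 9 at 10 d held without each pool in turn. Tnc, Timp1 and Lox fell between the overload times, by 2.12, 2.07 and 1.73, where 3.38% of all genes fell and 2.7% rose. Those calls held in 9, 7 and 7 of the 10 fits. With the inhibitor the list medians were -0.27 at 3 d and -0.51 at 10 d, where all genes had medians of 0.03 and 0.01. No gene of the list was called, where 0% of all genes were called at 3 d and 0.104% at 10 d. The list summed to 7099 and 12582 linear units in the first and second pools of 10 d of overload alone. The 10 d median of -0.51 is therefore taken against 2 unlike pools.

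**Figure D4:**
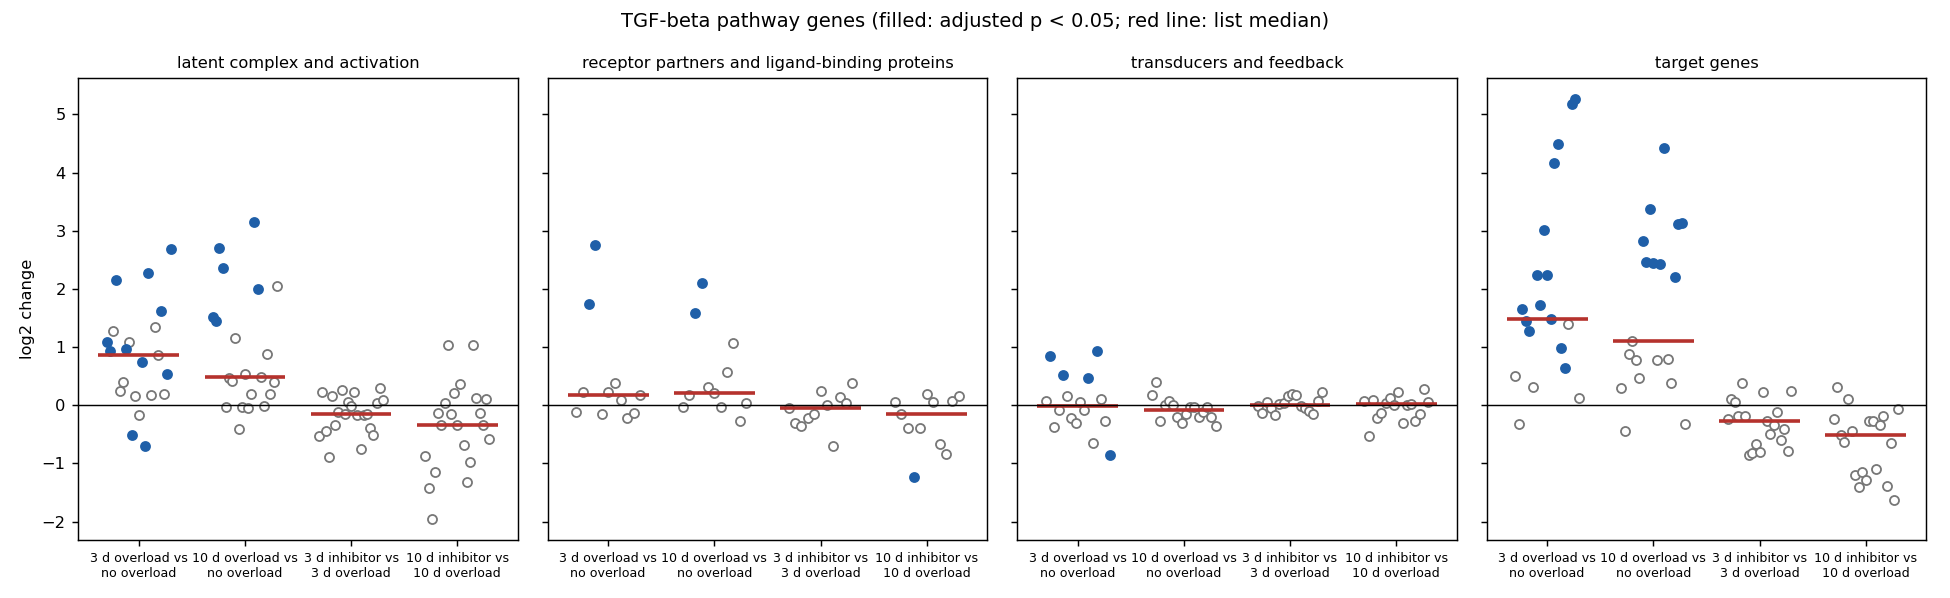
Log2 change of every gene in the 4 pathway lists, with 1 panel per list and the comparisons of overload with no overload and of the inhibitor with overload alone along the horizontal axis. Filled points were called and the red line is the list median, which for the target genes is 1.48 at 3 d and 1.11 at 10 d of overload.

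The summed level of macrophage and monocyte markers moved in the same group order as Tgfb1. Tgfb3, Ltbp2 and Tgfbi had that order of group means too, as did Cd109 and Tnc of the pathway lists. The order was therefore not particular to Tgfb1 and these markers. By group mean each marker except Cd68 kept that order. Cd68 was higher at 3 d with the inhibitor, at 9.99 and 9.96, than at 3 d of overload alone, at 9.60 and 9.64. All 12 markers, among them Adgre1, Cd68 and Csf1r, rose at 3 d and 11 rose at 10 d of overload. Over all genes, 9.31% rose at 3 d and 3.9% at 10 d. Their summed linear level was 2751 to 3237 at 3 d with the inhibitor, 3529 to 4059 at 3 d of overload alone, 948 to 1068 at 10 d with the inhibitor, 1191 to 1787 at 10 d of overload alone, and 364 to 447 without overload. None of the 12 was called with the inhibitor at either time, where 0% of all genes were called at 3 d and 0.104% at 10 d. Their median difference was -0.51 at 3 d and -0.55 at 10 d, against 0.03 and 0.01 over all genes. Whether these cells account for the Tgfb1, Ltbp2 or Tgfbi levels was not tested, and in whole muscle fewer cells of a type and less RNA per cell cannot be told apart.

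Summed fibroblast and tendon markers were higher at both times of overload alone than without overload. Summed endothelial markers were 1799 to 1876 at 3 d and 2109 to 2333 at 10 d of overload alone. Without overload they were 1961 to 2047. Summed pericyte and smooth muscle markers were 3419 to 3779 at 3 d and 3907 to 3925 at 10 d of overload alone. Without overload they were 3793 to 3871. Summed fibroblast markers were 3049 to 3232 at 3 d with the inhibitor, 3447 to 3871 at 3 d of overload alone, 3348 to 3422 at 10 d with the inhibitor, 4303 and 5863 in the first and second pools of 10 d of overload alone, and 2968 to 3140 without overload. Of these 12 markers, 5 rose and 2 fell at 3 d, and 8 rose and none fell at 10 d of overload alone. Over all genes, 9.31% rose and 8.18% fell at 3 d, and 3.9% rose and 1.23% fell at 10 d. Summed tendon markers were 2054 to 2298 at 3 d with the inhibitor, 2270 to 2667 at 3 d of overload alone, 1954 to 2003 at 10 d with the inhibitor, 2449 and 3834 in the first and second pools of 10 d of overload alone, and 1021 to 1049 without overload. The brightest gene, Thbs4, gave 46.2% to 78.8% of that sum. Without Thbs4 the other 7 tendon markers summed to 435 to 499 at 3 d with the inhibitor, 586 to 768 at 3 d of overload alone, 527 to 724 at 10 d with the inhibitor, 978 and 1655 in the 10 d pools of overload alone, and 528 to 549 without overload. Of the 8 tendon markers, Scx and Thbs4 rose at 3 d and 4 rose at 10 d of overload alone, where 9.31% and 3.9% of all genes rose. At 3 d with the inhibitor against no overload, Scx and Thbs4 rose, where 7.71% of all genes rose. Kera, Mkx and Tnmd fell there (adjusted p = 0.0321, 0.0377 and 0.0457), where 6.51% of all genes fell. Thbs4 was the only one called at 10 d with the inhibitor against no overload, and it rose, where 1.13% of all genes did. Against overload alone, Tnmd was lower with the inhibitor averaged over both times (-1.76, adjusted p = 0.0499), where 0.289% of all genes were called. No tendon marker was called at a single time, where 0% of all genes were at 3 d and 0.104% at 10 d. The second 10 d overload pool was higher than the first in the fibroblast and tendon sums, in the macrophage and monocyte sum and in all 10 genes. On the log2 scale the gap was 0.43 to 1.29 in Tgfb1, Tgfb3, Tgfbr2, Ltbp1, Ltbp2 and Tgfbi. It was 0.07 to 0.18 in Tgfb2, Ltbp3, Tgfbr1 and Tgfbr3. Platelet markers, of which Ppbp was the brightest, summed to 377 to 572 at 3 d with the inhibitor, against 163 to 301 at 3 d of overload alone. At 10 d they summed to 478 to 987 with the inhibitor, against 130 to 140 without it, and to 230 to 296 in the pools without overload. Ppbp gave 35.4% to 75.4% of these sums. Without Ppbp the platelet sums were 136 to 157 at 3 d with the inhibitor, against 105 to 132 at 3 d of overload alone. At 10 d they were 132 to 243 with the inhibitor, against 62.9 to 66.3 without it, and 73.9 to 95.3 without overload. At 3 d Pf4 was lower with the inhibitor (-0.77), while the other platelet markers were higher. Granulocyte precursor markers summed to 52.3 to 69.99 at 10 d with the inhibitor, against 16.8 to 19.99 at 10 d of overload alone. Ngp gave 56.2% to 59.1% of the sums at 10 d with the inhibitor. Of the 7 genes, 5 lay below the median over genes in those pools, and all 7 in the 10 d pools of overload alone. Ctsg was lower with the inhibitor at 10 d (-0.64), while the others were higher by group mean. At 3 d they summed to 23.4 to 27.3 with the inhibitor, against 17.8 and 273 without it. None of the platelet or granulocyte precursor markers was called with the inhibitor at either single time, where 0% and 0.104% of all genes were. Averaged over both times, the platelet gene Gp9 was higher with the inhibitor (adjusted p = 0.0418), where 0.289% of all genes were called. The part of these markers in the differences was not tested.

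**Figure D5:**
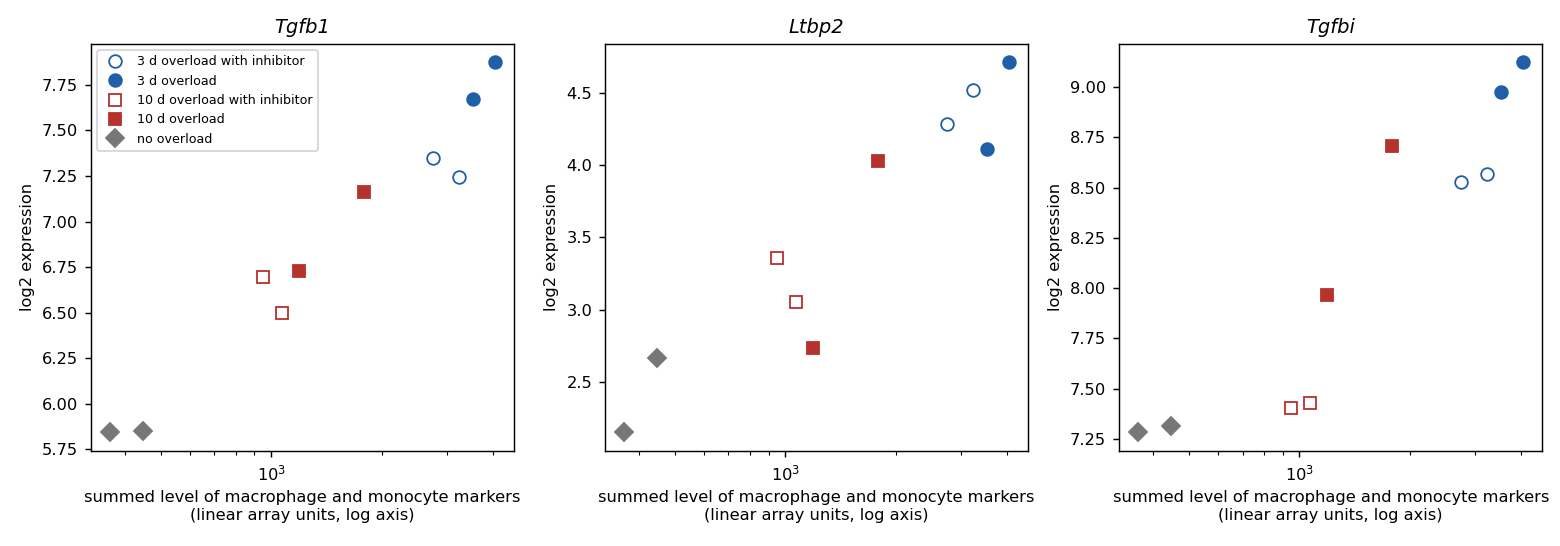
Log2 level of Tgfb1, Ltbp2 and Tgfbi against the summed linear level of 12 macrophage and monocyte markers in the same pool, on a log axis, with each point a pool and colours for the 5 groups. The 3 d overload pools have the highest marker sums, 3529 to 4059, and the pools without overload the lowest, 364 to 447.

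Over the 10 arrays, the genes closest in pattern to each of these 3 were listed from 2757 genes whose group means spanned at least 1 log2 unit. Tgfb1 was closest to Ckap4 (Pearson r = 0.99), Clec4a3 (0.989) and Pld4 (0.989). Ltbp2 was closest to Fads3 (0.988), Tyrobp (0.976) and Cd300ld (0.974), and Tgfbi to Rasgef1b (0.991), Ptbp1 (0.989) and Ndc80 (0.987). Between the 3 genes themselves r was 0.938 for Tgfb1 and Tgfbi, 0.925 for Tgfb1 and Ltbp2, and 0.884 for Ltbp2 and Tgfbi. These values describe 10 points that fall into 5 groups of 2 and share each array's normalisation.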

How the data were processed

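RNA from 10 pools of mouse plantaris muscle was hybridized to Affymetrix Mouse Gene 2.1 ST arrays. The labels name more than one labelling kit for every array, so the kit cannot be given. The deposited values, 1 log2 table of 41345 probe sets, were made by the authors with RMA, oligo and limma per the submitters' processing notes, which give no versions. RMA subtracts background, quantile-normalizes and summarizes probes, which compresses changes of dim genes such as Ltbp2 and removes shifts shared by most transcripts. No strip or scan date is given in the sources used here.

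Of the probe sets, 23521 had 1 symbol, 1814 had several and 16010 were not listed in the platform annotation. The brightest probe set stood for each of 22180 genes (1082 had several), with no filter on dim signal. limma 3.58.1 in R 4.3.3 fitted 1 coefficient per group over all 10 arrays, with empirical Bayes moderation (5 residual and 3.58 prior degrees of freedom). Benjamini-Hochberg adjustment ran over the 22180 genes of each of 9 comparisons, and the threshold was 0.05. The fit was tested on simulated data for 3 d of overload against no overload and for the inhibitor at 10 d, with 200 changed genes. It recovered 98.1% of 4-fold changes in both, 51.9% and 53.2% of 2-fold changes, and 3.86% and 3.56% of 1.5-fold changes. Most changes of 1.5-fold would therefore not be called. Of the calls, 5.2% and 5.12% were false. The members and lists were chosen with earlier results of these data known. Every member was named. Of a list, up to 4 called genes with the largest change were named, or all where at most 5 were called. Other genes and values singled out, such as the inhibitor value of Ltbp4, were chosen after their values were seen. Marker lists were summed as linear values. Alternatives changed the probe set rule, the dim filter, centring, the arrays fitted, the variance prior, array weights, the features adjusted over and the pools. Promoter sequences came from RefSeq, GRCm38.p6.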

Additional observations from a re-analysis of the deposited data

How the results depend on the processing

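No paired analysis was possible because the numbers in the labels run on from pool to pool through the groups and are shared by no 2 pools. No called change of a member turned sign under any alternative. The number of the 10 genes called, given as main and alternative, moved as follows. At 3 d of overload it was 3, and 5 with a variance trend, which added Tgfb3 and Tgfbr2 (2 to 4 without single pools). At 10 d it was 4, and 0 in a fit of only the groups compared and 1 adjusted over all probe sets (0 to 4 without single pools). For 10 d against 3 d it was 1, and 4 without dim genes or with a variance trend, 2 with a common median over genes, a choice made after seeing the data, and 0 in a fit of only the groups compared or over all probe sets (0 to 3 without single pools). For the inhibitor at 10 d and averaged over both times it was 0, and 1 with a variance trend (0 to 1 without single pools). For 10 d with the inhibitor against no overload it was 0, and 2 without dim genes and 3 with a variance trend (0 to 1 without single pools). At 3 d with the inhibitor against no overload it was 3 (2 to 3 without single pools). Over all genes, counts at 10 d of overload were 1138, and 1900 without dim genes, 2097 with a variance trend, 31 in a fit of only the groups compared and 509 over all probe sets. For 10 d against 3 d they were 1348, and 2295, 2450, 202 and 540 under the same settings. For the inhibitor at 10 d they were 23, and 48, 180, 3 and 0, and averaged over both times 64, and 219, 465 and 0 without dim genes, with a trend and over all probe sets. For 3 d with the inhibitor against no overload they were 3154, and 1933 in a fit of only the groups compared, and for 10 d with it 345, and 830, 1069, 102 and 106. Leaving out single pools moved these counts by over 1.5 times, and with them the shares over all genes. At 3 d of overload the count was 2146 to 3850, lowest without the first 3 d pool. At 10 d it was 259 to 1232, with 324 without the second 10 d pool and 259 and 525 without the first and second pools of no overload. For 10 d against 3 d it was 218 to 1096, lowest without the first 3 d pool. For the inhibitor at 10 d it was 0 to 180 and averaged over both times 0 to 341, both highest without the first 10 d overload pool. It was 0 to 7 for the inhibitor at 3 d. Against no overload it was 1343 to 3178 at 3 d and 31 to 486 at 10 d with the inhibitor, lowest without the first inhibitor pool of that time. A common median over genes changed the share of called genes that were higher to 32.2% at 3 d, against 53.2% as deposited, and to 43.1% at 10 d, against 76.0% as deposited. With 2 pools per group, Ltbp2, whose signal lay near the array median without overload, had the widest intervals of the 10 genes.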
